A study of Homo sapiens with 12 samples.

Results

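BPNT2, NDRG1, ZDHHC9, HUWE1 and CYRIB are 5 transcripts to which the study tethered RNA-binding proteins or a methyltransferase with dCas13b, an RNA-targeting Cas13 protein without nuclease activity. They were taken by name, as 5 of the 62700 genes of GENCODE release 44, and every PAR-CLIP cluster whose midpoint lay within one of them on the same strand was kept. This gave 92 of 102250 clusters. Clusters that overlapped by at least 1 nt were merged across libraries, which gave 27 of 45174 merged sites. PAR-CLIP marks where a protein touches RNA, and a cluster is a stretch of crosslinked sequence called in 1 library. All 12 libraries came from unmodified HepG2, a human hepatoma line (the genotype is labelled wildtype), fed with 4-thiouridine (4SU) and digested with RNase T1, which cuts after G. IGF2BP1, IGF2BP2, METTL1 and WDR4 had 2 libraries each, and IGF2BP3 had 4, of which 2 carried the label bio2. No tethered cells and no input library were among them.

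IGF2BP1, IGF2BP2 and IGF2BP3 are closely related RNA-binding proteins, each with RRM and KH domains, that sit mostly on 3' UTRs and steer the stability of their mRNAs; the study examined them as readers of internal N7-methylguanosine (m7G). METTL1 is the methyltransferase that writes m7G on tRNA and other RNA, and WDR4 is its partner. In a tethering experiment a guide RNA brings the fused protein to a chosen stretch of a transcript, so the position of natural binding relative to that stretch describes what was already there.

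The libraries held 4581 to 15701 clusters, fewest in IGF2BP2 replicate 1 and most in IGF2BP1 replicate 2. The deposited clusters carry no read count, so the depth behind a single cluster is unknown, and where no cluster was called binding may still have occurred below the caller's limits. Clusters are also no measure of RNA level. Of 9 hepatocyte and hepatoma markers, 8 had an exon cluster in at least 1 library (TTR had none, and APOA1 had them in 1 library). Of 4 markers of leukocytes, endothelium, fibroblasts and neurons, 0 had one. Over all 62700 annotated genes 7445 had an exon cluster, so 0 of 4 cannot be told from that share. These counts are a description and do not establish the cell type. The labels number the replicates, and the study's methods describe plates seeded for each; where replicates were not separate cultures, the p-values measure only the spread between these libraries. Libraries of the same protein also share that protein.

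The sequences at the sites that at least 6 libraries shared, on the 2 transcripts of chromosome X, show what was crosslinked. Each is the central 30 nt of the commonest cluster at the site, given 5' to 3' as DNA letters of hg38 on the minus strand. Capitals mark CATA, CATC or CATT, the letters of the CAUH motif named for the IGF2BP family.
ZDHHC9 site 1, coding sequence of exon 6, chrX:129814700-129814729: acctcttCATCctttctctctccctcctca
ZDHHC9 site 4, 3' UTR, chrX:129805580-129805609: acactctctgtctCATCtctcctcctttct
HUWE1 site 6, coding sequence of exon 68, chrX:53547822-53547851: cacctcaaccaCATCtaccaccaccaccac
HUWE1 site 7, coding sequence of exon 79, chrX:53536510-53536539: tcacctacacCATCaatcCATCttcccact
All 4 stretches are built almost wholly of C, T and A, and none holds more than a single G.

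The study's guide RNAs were designed against the stretches below, of which the first 30 nt of the transcript side are shown without capitals. They are printed to set the tethered sequence beside the bound one.
ZDHHC9 target, 36 nt in the 3' UTR, chrX:129805690-129805725: gtaagtagttgtagtagagataataattga
HUWE1 target, 35 nt in exon 68, chrX:53547899-53547933: tcatctcaattgctctcccagaaaacaagg

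Of the 27 merged sites, 16 lay in 3' UTRs and held 58 clusters. The coding sequence had 4 sites with 27 clusters, introns had 6 sites with 6 clusters, and 1 site with 1 cluster lay in an exon outside the canonical transcript. No site lay in a 5' UTR. BPNT2 and ZDHHC9 had a cluster in all 12 libraries (3.76% of genes with any cluster), in exons in each case (3.55% of genes with an exon cluster), and NDRG1 and HUWE1 in 10 (at least 10 libraries in 11.1%). ZDHHC9 had 31 clusters, BPNT2 25, HUWE1 20, NDRG1 14 and CYRIB 2. IGF2BP1, whose libraries were the largest, had clusters at 19 sites, IGF2BP3 at 11, WDR4 at 9, IGF2BP2 at 8 and METTL1 at 4.

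**Figure D1:**
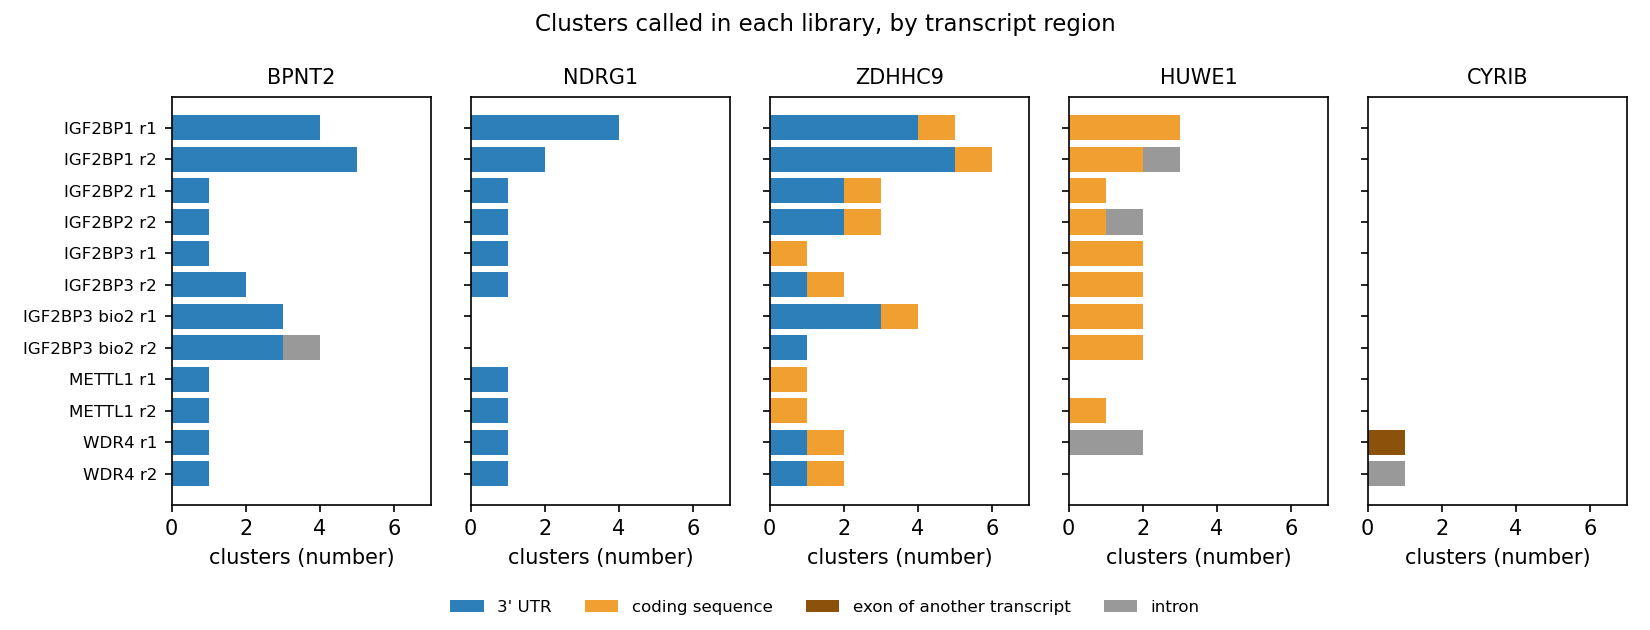
Number of clusters called in each of the 12 libraries within each of the 5 genes (horizontal axis), coloured by transcript region; r1 and r2 are replicates. BPNT2 and NDRG1 carried 3' UTR clusters, HUWE1 coding and intron clusters with none in the 3' UTR, and CYRIB 1 cluster in each WDR4 library.

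Sharing between libraries was uneven. Clusters in at least 2 libraries were found at 14 of the 27 sites, where 39.4% of all merged sites had them, and each of those 14 was present in 2 or more libraries of a single protein (32.2% of all merged sites). At least 6 libraries shared 6 sites (9.04% of all), at least 9 libraries shared 3 sites (2.75%), and all 12 libraries shared 1 site (0.591%). Clusters of all 5 proteins stood at 2 sites (3.08% of all). Reader and writer clusters met at 6 sites (14.2% of all), and 4 sites had clusters of METTL1 or WDR4 alone (42.7%). For IGF2BP3 tethering, the study picked transcripts with methylated loci and IGF2BP binding sites near them. For METTL1 tethering it used loci of relatively low methylation. These shares are therefore a description and were not tested.

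BPNT2 encodes a Golgi phosphatase that clears the by-product of sulfation reactions, 3'-phosphoadenosine 5'-phosphate. Its gene (ENSG00000104331, chr8:56957931-56993867, minus strand) gives a canonical mRNA of 5 exons and 7224 nt, of which 5862 nt are 3' UTR. All 24 of its exon clusters lay in that 3' UTR, at 6 sites. Both IGF2BP1 libraries had the most exon clusters, 4 in replicate 1 and 5 in replicate 2. The IGF2BP3 libraries had 1 and 2 exon clusters without the bio2 label and 3 in each library with it. Each library of IGF2BP2, METTL1 and WDR4 had exactly 1.

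That single cluster was the same in every library. Site 4 (chr8:56960935-56960992), centred 2825 nt after the stop codon and near the middle of the 3' UTR, was present in all 12 libraries and was reproducible for all 5 proteins, where 1.32% of all merged sites were. The 5' end of the cluster, on the minus strand, lay at 56960987 in 11 of 12 libraries, and the whole 38-nt interval was identical in 7. IGF2BP1 replicate 1 started 5 nt upstream of the others, at 56960992. IGF2BP1 replicate 2, IGF2BP2 replicate 2 and IGF2BP3 replicate 1 extended the site downstream to 56960935.

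The other 3' UTR sites of BPNT2 belonged to readers alone. Site 5 (chr8:56958914-56958962), 4855 nt after the stop, had clusters of both IGF2BP1 libraries, of IGF2BP3 replicate 2 and of both bio2 libraries. Site 3 (chr8:56961048-56961071), 55 nt upstream of site 4, and site 7 (chr8:56957994-56958016), 5789 nt after the stop, were reproducible for IGF2BP1 and had no other protein. Site 6 (chr8:56958373-56958392) came from IGF2BP1 replicate 2 alone. Site 2 (chr8:56963469-56963492), 313 nt after the stop, was present in both bio2 libraries with the same 24-nt interval and in no other library. IGF2BP3 libraries thus differed by label: the pair without bio2 had no cluster there.

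NDRG1 encodes a cytoplasmic protein induced by hypoxia and other stress. Its gene (ENSG00000104419, chr8:133237175-133302022, minus strand) has a canonical mRNA of 16 exons and 3025 nt with a 3' UTR of 1703 nt, and all 14 clusters lay in that 3' UTR. IGF2BP1 replicate 1 had 4 clusters, IGF2BP1 replicate 2 had 2, and the other 8 libraries with clusters had 1 each. Both bio2 libraries had none.

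The clusters of NDRG1 fell into 2 zones. IGF2BP1 had clusters of both libraries in each, while the clusters of every other protein lay in a single zone. Near the stop codon, site 3 (chr8:133238598-133238627), centred 270 nt after it, had both IGF2BP1 libraries and the 2 IGF2BP3 libraries without the bio2 label. Sites 1 (chr8:133238801-133238832) and 2 (chr8:133238686-133238723), 62 and 174 nt after the stop, came from IGF2BP1 replicate 1 alone. Farther down, site 4 (chr8:133237905-133237954), centred 944 nt after the stop, was reproducible for IGF2BP1, IGF2BP2, METTL1 and WDR4 and had no IGF2BP3 cluster. The IGF2BP2, METTL1 and WDR4 clusters of NDRG1 were all at site 4.

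Site 4 of NDRG1 had several forms. IGF2BP1 replicate 1, IGF2BP2 replicate 2 and both METTL1 libraries had the same 40-nt interval, 133237915 to 133237954. IGF2BP2 replicate 1 and WDR4 replicate 2 had only the downstream 24 nt, 133237905 to 133237928, and WDR4 replicate 1 spanned both, with 50 nt. The downstream 23 nt of the site also lie in a lncRNA gene on the same strand (ENSG00000289316, chr8:133237171-133237927), so clusters there cannot be given to one of the genes by position.

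The base composition of site 4 was unlike that of the other shared sites. G made up 50.0% to 58.8% of its 8 clusters, with a median of 55.0%. Over all 96139 clusters on chromosomes 1 to 22, X and Y the median was 5.71% G, and 1.65% of clusters had 50% G or more. The 12 clusters of BPNT2 site 4 held 2.56% to 6.98% G, and the 11 of ZDHHC9 site 1 held 0% to 3.64%. C and T together made up a median of 27.5% of site 4 of NDRG1, compared with 64.5% over all clusters.

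ZDHHC9 encodes a palmitoyltransferase that works with GOLGA7 and modifies RAS proteins. Its gene (ENSG00000188706, chrX:129803288-129843909, minus strand) has a canonical mRNA of 11 exons and 4571 nt with a 3' UTR of 3082 nt. All 31 clusters were exonic, 11 in the coding sequence and 20 in the 3' UTR. IGF2BP1 had 5 and 6 clusters, IGF2BP2 3 and 3, and IGF2BP3 1 and 2, or 4 and 1 with the bio2 label. METTL1 had 1 in each library and WDR4 had 2 in each.

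ZDHHC9 site 1, in the coding sequence of exon 6 and printed above, was present in every library but bio2 replicate 2. Its intervals were close to identical: 9 of 11 ended downstream at 129814691 and 9 of 11 began upstream at 129814737. IGF2BP1 replicate 2 reached upstream to 129814745. It was the only coding site among the 7 sites of this transcript and the only one with a METTL1 cluster.

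In the ZDHHC9 3' UTR, site 4 (chrX:129805574-129805615), 776 nt after the stop, was present in 8 libraries. It had both libraries of IGF2BP1 and IGF2BP2, IGF2BP3 replicate 2, both bio2 libraries and WDR4 replicate 2. Site 7 (chrX:129803799-129803832), 2555 nt after the stop, had the same 34-nt interval in both IGF2BP1 libraries, IGF2BP2 replicate 1 and bio2 replicate 1. Site 6 (chrX:129805225-129805274), 1121 nt after the stop, had both IGF2BP1 libraries and WDR4 replicate 1, and site 2 (chrX:129806119-129806138), 242 nt after the stop, both IGF2BP1 libraries and IGF2BP2 replicate 2.

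The remaining 2 sites of ZDHHC9 came from 1 library each. Site 3 (chrX:129805641-129805674), 25 nt upstream of site 4, was seen in bio2 replicate 1. Site 5 (chrX:129805352-129805376) was seen in IGF2BP1 replicate 2, in a run of C and T whose central 20 nt occur 114 times in the genome, so its origin in ZDHHC9 is uncertain.

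HUWE1 encodes a very large HECT-type ubiquitin ligase, and its introns host the let-7f-2 and miR-98 genes. Its gene (ENSG00000086758, chrX:53532096-53686752, minus strand) has 84 exons in a canonical mRNA of 14731 nt, of which 13125 nt are coding sequence and 1213 nt are 3' UTR. The 16 exon clusters all lay in coding sequence, at 3 sites late in the transcript or near its middle. Every reader library had at least 1 exon cluster. Among the 4 writer libraries, METTL1 replicate 2 had 1 and the others had none.

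HUWE1 site 6 (chrX:53547806-53547888), in exon 68 and at 0.797 of the way through the coding sequence, was present in all 8 reader libraries and in METTL1 replicate 2. Its downstream end was 53547820 in 7 of 9 libraries, but its length varied more than at any other shared site described here, from 33 nt in IGF2BP2 replicate 1 and both bio2 libraries to 82 nt in IGF2BP1 replicate 2. Site 7 (chrX:53536509-53536539), in exon 79 at 0.936 of the coding sequence, had both IGF2BP1 and all 4 IGF2BP3 libraries, with the same 31-nt interval in 5 of 6. IGF2BP2, METTL1 and WDR4 had no cluster there. Site 5 (chrX:53580932-53580964), in exon 43, came from IGF2BP1 replicate 1 alone.

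CYRIB encodes a RAC1-binding protein that restrains actin remodelling through the WAVE complex. Its gene (ENSG00000153310, chr8:129839593-130017504, minus strand) is the longest of the 5 at 177912 nt, and its canonical mRNA of 3904 nt had no cluster in any library. The pair of clusters in the gene came from WDR4. WDR4 replicate 1 had a 23-nt cluster at chr8:129939686-129939708. It lay in an exon of other transcripts, centred 89 nt from the nearest annotated exon end, and in intron 2 of the canonical transcript. WDR4 replicate 2 had a 45-nt cluster at chr8:129929227-129929271, in intron 2 and 10359 nt from the nearest exon. Neither site was seen in the other WDR4 replicate.

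Each of the 6 intron sites of the 5 genes was seen in 1 library. WDR4 replicate 1 had 2 of them, 89 nt apart in intron 23 of HUWE1 (chrX:53609902-53609934 and chrX:53609788-53609812), 1009 and 891 nt from an exon. IGF2BP2 replicate 2 and IGF2BP1 replicate 2 had 1 each in intron 3 of HUWE1, 8256 and 5410 nt from an exon, and the centre of the first occurs 26 times in the genome and that of the second 2 times. The intron site of BPNT2 (chr8:56975754-56975802, intron 3) came from bio2 replicate 2, and that of CYRIB from WDR4 replicate 2. Introns made up 78.8% to 94.6% of the length of the 5 genes.

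**Figure D2:**
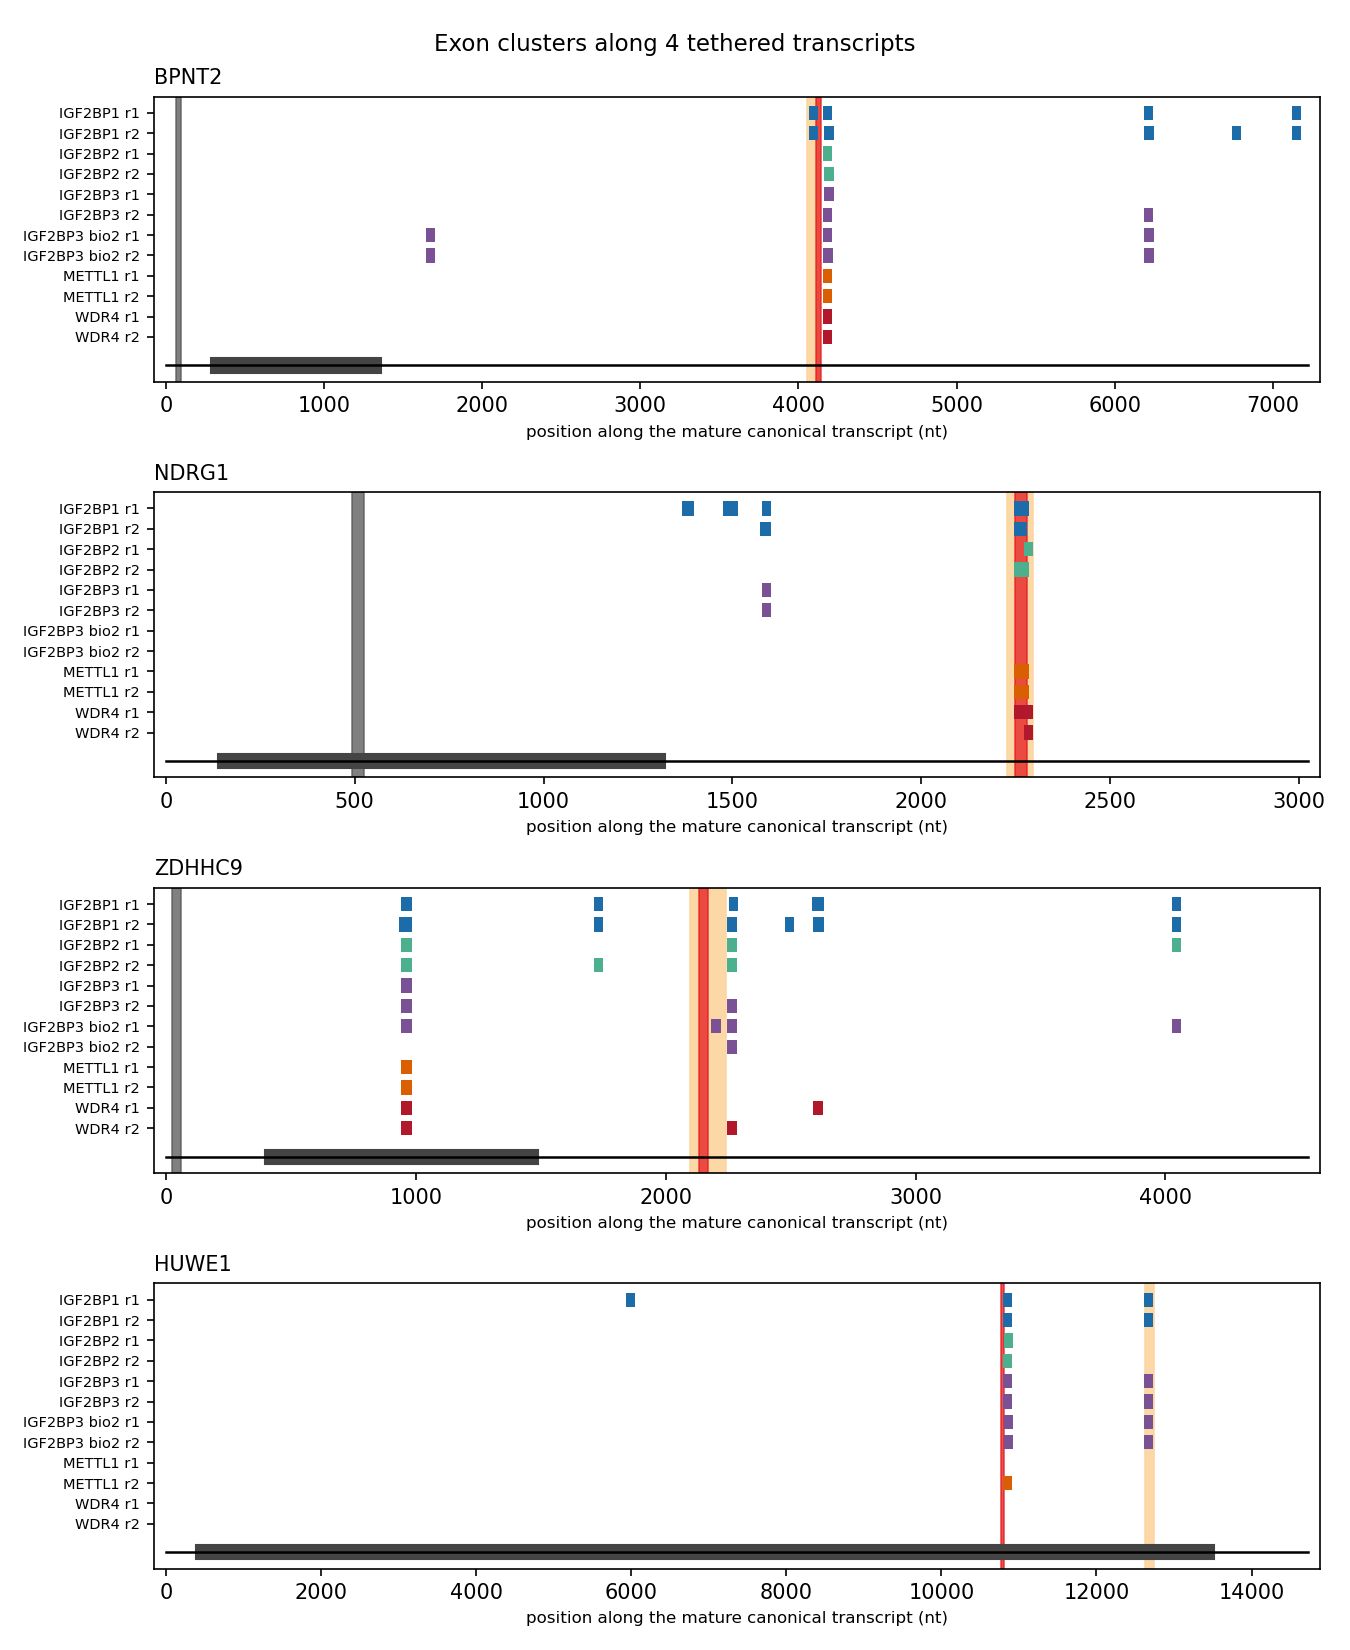
Exon clusters of the 12 libraries (rows, coloured by protein) along the mature canonical transcripts of BPNT2, NDRG1, ZDHHC9 and HUWE1, in nt from the transcript start; clusters are widened to be visible and the dark box is the coding sequence. Red bands are the tethering targets, grey bands the control guide targets and light orange bands the methylation amplicons, and the BPNT2 column of 12 clusters stands just downstream of its target.

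Where the tethering targets lay relative to natural clusters was read from the mature transcript, as the number of nt between the target and the nearest exon cluster of each protein. The guides and the primers that measured m7G were matched exactly to the canonical transcripts. The study chose its targets by methylation, relatively low for METTL1 tethering, and for IGF2BP3 tethering also by nearby binding sites. The distances are therefore a description.

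The NDRG1 target (31 nt, chr8:133237921-133237951) lay wholly inside site 4. It overlapped a cluster in both libraries of IGF2BP1, IGF2BP2, METTL1 and WDR4, 8 libraries in all. The clusters of 6 of these covered it whole, and those of IGF2BP2 replicate 1 and WDR4 replicate 2 reached only its downstream end. For IGF2BP3 the nearest cluster was 646 nt away, in the 2 libraries without the bio2 label, and the bio2 libraries had none on the transcript.

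The BPNT2 target (32 nt, chr8:56961014-56961045) fell in the 55-nt gap between sites 3 and 4. IGF2BP1 was 2 nt away on the upstream side in both libraries. The libraries of the other 4 proteins were all 26 nt away, on the downstream side.

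The HUWE1 target (printed above) lay just upstream of site 6. The nearest cluster was 10 and 11 nt away in the IGF2BP1 libraries, 11 to 46 nt in the 4 IGF2BP3 libraries, 28 and 46 nt in the IGF2BP2 libraries and 30 nt in METTL1 replicate 2. METTL1 replicate 1 and both WDR4 libraries had no exon cluster on the transcript.

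The ZDHHC9 target overlapped no cluster. Bio2 replicate 1 had a cluster 15 nt downstream (site 3), and without that library the nearest IGF2BP3 cluster was 74 nt away (site 4). In IGF2BP3 replicate 1 the nearest was 1147 nt away, at the coding site. IGF2BP1 was 75 and 90 nt away and IGF2BP2 74 and 75 nt. WDR4 was 74 nt away in replicate 2 and 418 nt in replicate 1, and METTL1 was 1148 nt away in both libraries, at the coding site. The CYRIB target (32 nt, chr8:129842083-129842114), 43 nt after the stop codon, had no exon cluster of any of the 5 proteins on the canonical transcript to measure from.

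**Figure D3:**
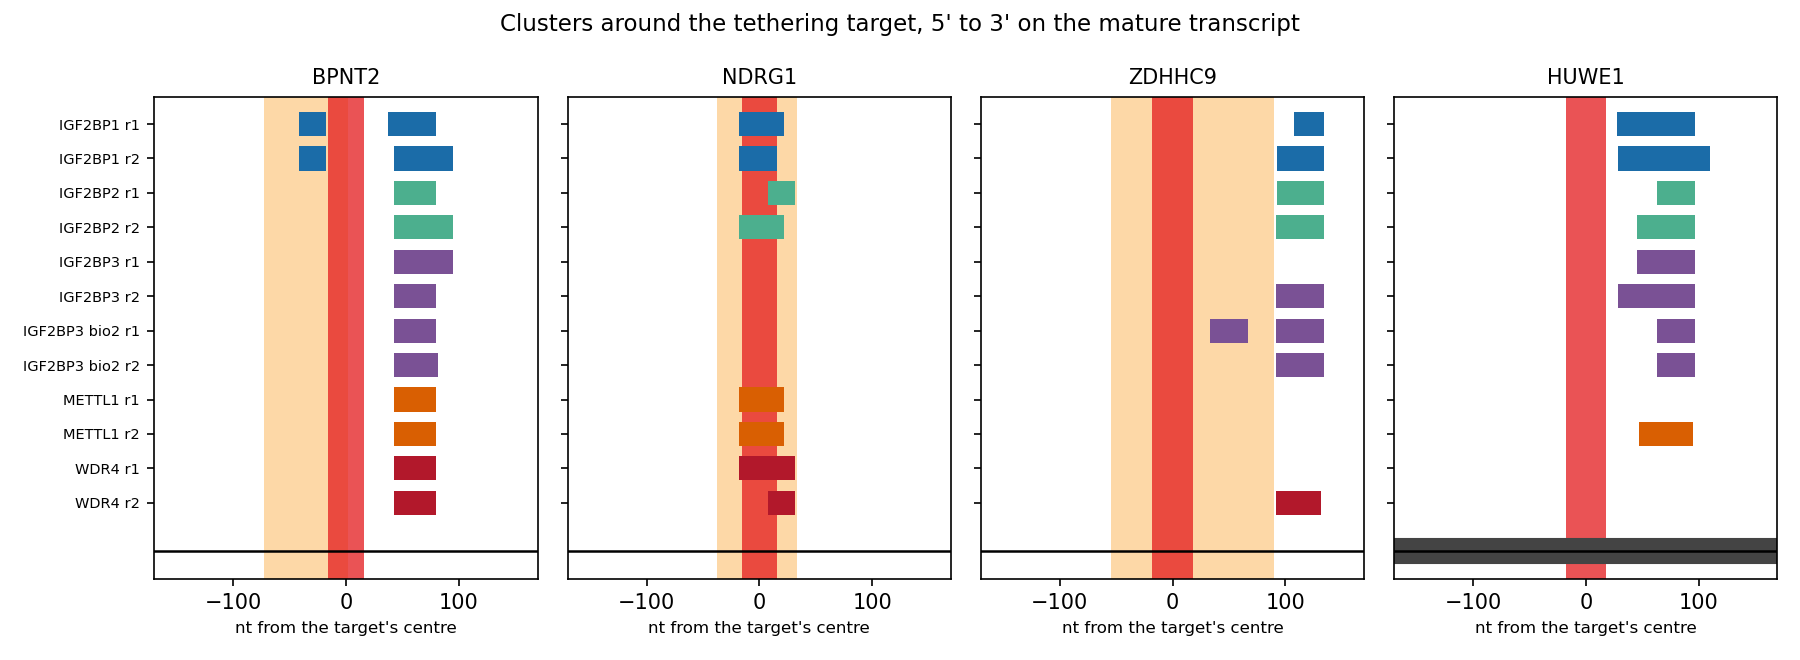
Clusters of the 12 libraries around the centre of the tethering target on 4 mature transcripts, drawn to scale with 5' on the left; red marks the target, light orange the methylation amplicon and the dark bar coding sequence. The NDRG1 target overlaps clusters of 8 libraries and none of IGF2BP3, while the HUWE1 target ends 10 nt before site 6 and the BPNT2 target 26 nt before the end that 11 of 12 libraries share.

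The control guides of the study lay far from clusters where they matched a canonical transcript. The control targets of BPNT2 and ZDHHC9 were in 5' UTRs, and that of NDRG1 was in the coding sequence of exon 6. The nearest cluster of any protein was 1568 nt away in BPNT2, 843 nt in NDRG1 and 873 nt in ZDHHC9. The HUWE1 control matched intron 4 and no annotated transcript, and the CYRIB control matched an exon of a transcript other than the canonical one.

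The amplicons that measured methylation overlapped the tethering target in BPNT2 by 18 nt and contained it in NDRG1, ZDHHC9 and CYRIB. In HUWE1 the amplicon (110 nt, chrX:53536462-53536571) lay in exon 79, 1823 nt downstream of the target on the mRNA. It contained the whole 31 nt of site 7, where both IGF2BP1 and all 4 IGF2BP3 libraries had a cluster, while the target lay just upstream of site 6. The study's methods measured m7G on fragmented or on full-length mRNA. With full-length mRNA an amplicon does not locate the m7G within the transcript.

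Readers and writers were compared by the number of clusters in a gene per 10000 clusters of the library, since the libraries differ in size. A two-sided exact permutation test over every split of 12 libraries into 8 and 4 was run for each gene with clusters in at least 3 libraries, with Benjamini-Hochberg adjustment over all genes tested. The smallest p it can give is 0.00202. HUWE1 had the lowest p of the 5 genes. Its exon clusters ranged from 1.27 to 3.33 per 10000, with a median of 2.56, in the 8 reader libraries, and were 1.16 in METTL1 replicate 2 and 0 in the other 3 writer libraries. On this scale the groups did not overlap, which was true of readers above writers in 5.78% of the genes tested. As raw numbers they did: both IGF2BP2 libraries and METTL1 replicate 2 had 1 exon cluster each. Raw numbers gave an exact permutation p of 0.00606 and an adjusted p of 0.236.

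The mean for HUWE1 exon clusters was 2.41 ± 0.816 per 10000 (SD, n = 8) in readers and 0.289 ± 0.578 (SD, n = 4) in writers. The exact permutation p was 0.00202, the smallest possible, and the adjusted p was 0.0537 over 4224 genes. No gene passed the threshold of 0.05 in this test (0% called in either direction); 159 genes stood at the smallest p and 171 were needed there for a call. With unadjusted p, 824 genes (19.5%) were higher in readers and 114 (2.7%) in writers. With intron clusters included, HUWE1 averaged 2.66 ± 0.539 in readers (n = 8) and 0.801 ± 0.994 in writers (n = 4; exact permutation p = 0.00404, adjusted p = 0.0956). In that test over 6199 genes 0% were called, and with unadjusted p 11% were higher in readers and 9.02% in writers.

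The other genes differed less from the spread between libraries. BPNT2 clusters ranged from 1.34 to 6.66 per 10000 in readers (median 2.84), highest in bio2 replicate 2, and from 1.02 to 1.51 in writers. The exon clusters of BPNT2 averaged 2.95 ± 1.33 in readers (n = 8) and 1.19 ± 0.218 in writers (n = 4), with an exact permutation p of 0.0222 and an adjusted p of 0.164. ZDHHC9, whose clusters were all exonic, ranged from 1.55 to 6.55 in readers (median 3.63) and from 1.16 to 2.17 in writers. Its means were 3.77 ± 1.85 (n = 8) and 1.72 ± 0.474 (n = 4), with an exact permutation p of 0.0626 and an adjusted p of 0.251. In both genes the groups overlapped.

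NDRG1 showed no separation. It ranged from 0 in both bio2 libraries to 2.76 in readers, with a median of 1.40, and from 1.02 to 1.51 in writers. The means were 1.32 ± 0.954 (n = 8) and 1.19 ± 0.218 (n = 4), with an exact permutation p of 0.758. Without IGF2BP1 replicate 1, the difference of readers minus writers changed from 0.126 to -0.0795 per 10000, and without the bio2 libraries it was 0.566. CYRIB had clusters in 2 libraries only and was not tested.

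**Figure D4:**
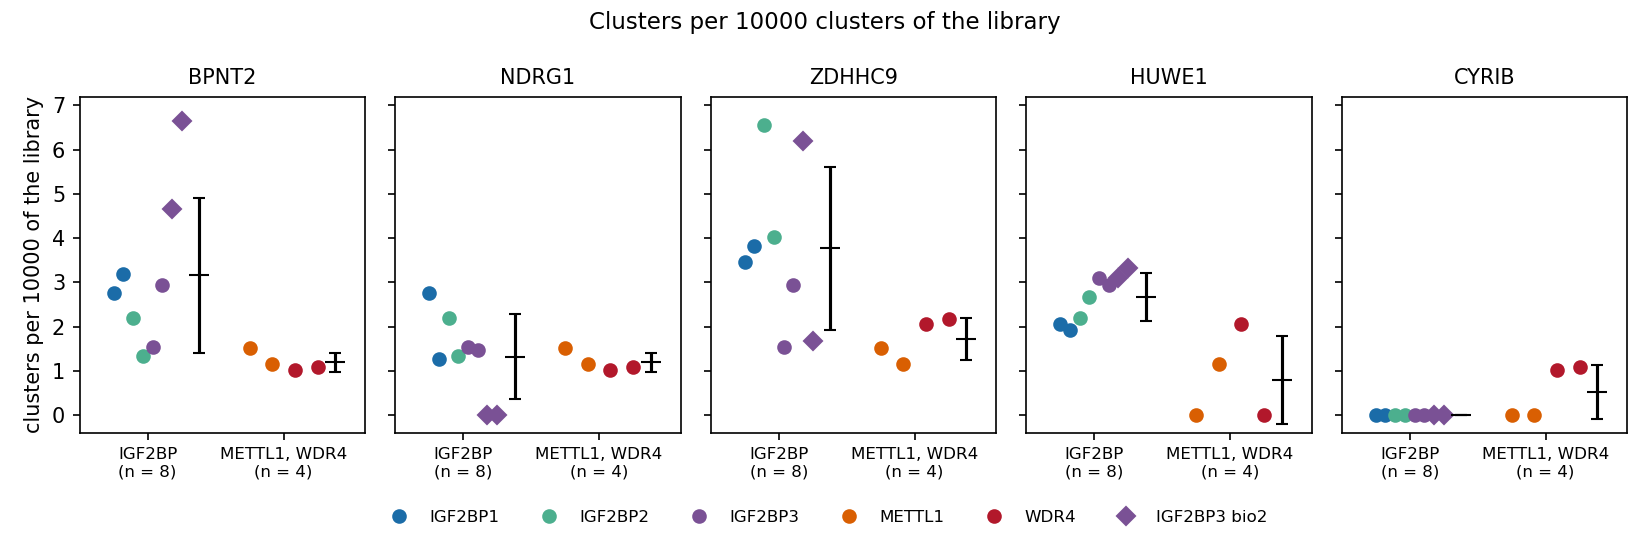
Clusters within each gene per 10000 clusters of the library (vertical axis), with 1 point for each library, for 8 IGF2BP libraries and 4 METTL1 and WDR4 libraries; diamonds are the bio2 libraries and black bars are the mean ± SD. HUWE1 lies between 1.91 and 3.33 in readers and between 0 and 2.05 in writers, and both bio2 points of NDRG1 are at 0.

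Intron clusters were too few for most of the genes. Only HUWE1 could be tested, with 0.247 ± 0.494 intron clusters per 10000 in readers (n = 8) and 0.512 ± 1.02 in writers (n = 4; exact permutation p = 0.588, adjusted p = 0.787). In the same test 0.587% of 2727 genes were called higher in readers and 3.63% higher in writers. Those 115 genes all stood at the smallest p, where 111 were needed for a call. The count fell to 0 under the replicate block and with any library left out, but those runs also raised the smallest possible p. For this exact permutation test it was 0.00444 under the replicate block and 0.00303 or 0.00606 with a library left out, against 0.00202. The counts of 0 therefore cannot tell a change in the genes from a coarser test.

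The ends of most member sites lay at G, after which RNase T1 cuts. The commonest interval was preceded by G at 25 of 27 sites and ended in G at 26 of 27. Among all clusters of a library, 74.2% to 94.9% were preceded by G and 52.7% to 80.4% ended in G. These shares count every cluster and the site figures only the commonest interval of each site, so they are unlike measures.

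Motif letters at the 27 sites were near the series background. In windows of 61 nt, CATA, CATC or CATT on the transcript strand stood at 16 of 27 sites (59.3%), compared with 51.6% of all merged sites and 60.3% of those in at least 2 libraries. GGAC, the core of the m6A consensus, stood at 3 sites (11.1%) against 11.6%. A bipartite element of the family (GGCA 9 to 25 nt before CA, or CGGC 15 to 25 nt before CA) stood at 4 sites (14.8%) against 12.9%. Among the widely shared sites, BPNT2 site 4, ZDHHC9 sites 1 and 4 and HUWE1 sites 6 and 7 held CATA, CATC or CATT, and NDRG1 site 4 held none of the 3 motifs.

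Relatives of the 5 genes were covered unevenly. Of the 62700 annotated genes, of all types, 7445 had an exon cluster, and 32.4% of those 7445 had them in at least 6 libraries. Whether the lists differ from these shares was not tested. Among 7 genes of sulfation and phosphoadenosine turnover, 3 had an exon cluster and 1, BPNT1, had them in 6 libraries; BPNT1 is the cytosolic phosphatase that acts on the same by-product as BPNT2. Of the other 3 NDRG family genes only NDRG3 had clusters, with exon clusters in 3 libraries. Among 22 palmitoyltransferases and GOLGA7, 10 had an exon cluster, led by ZDHHC20 in 11 libraries, ZDHHC3 in 8 and GOLGA7, the partner of ZDHHC9, in 6.

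Of 26 other HECT ligases, 13 had an exon cluster and 8 had intron clusters alone. NEDD4L led with exon clusters in 9 libraries, SMURF1 had them in 7 and UBE3A in 6. Among 13 genes of RAC1 and the WAVE complex, with which the CYRIB protein acts, 8 had an exon cluster. BRK1, the smallest WAVE subunit, had them in all 12 libraries, WASF2 in 10 and CYFIP2 in 8, while the mRNA of CYRIB itself had none. By all clusters, none of the tested genes of these lists passed the adjusted threshold in either direction, and none of all 6199 genes did (0%). The smallest p had an adjusted p of 0.0629 there. ITCH, HERC1 and ABI2, higher in writers, and CYFIP2, higher in readers, stood at it (exact permutation p = 0.00202). HERC1 had 4 clusters in 4 libraries, all in introns and all in writer libraries. It thus passed the filter of at least 3 libraries only through the group where it was high. A gene with that pattern always reaches the smallest p, so its p is no separate support. The p was the same in the intron test, where the smallest p had an adjusted p of 0.0479, under the threshold. The intron calls fell to 0 with raw cluster numbers, presence or absence, or no filter on libraries.

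Genes whose clusters per 10000 varied most like a member over the 12 libraries were sought among 3580 genes. The closest to BPNT2 was PEG10 (Pearson r = 0.966), to NDRG1 ZNF587 (r = 0.932), to ZDHHC9 PLIN2 (r = 0.867) and to HUWE1 SELENOP (r = 0.878). These are descriptions over 12 points that share library size and protein.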

How the data were processed

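PAR-CLIP libraries of 5 proteins in HepG2 were used as deposited. According to the study's methods, the authors clipped and collapsed reads with the FASTX toolkit, aligned them by Bowtie and used PARalyzer to call clusters; the submitters' processing notes name Bowtie and hg38. Versions and PARalyzer settings were not given in the sources used here. The deposited unit is an interval for each called cluster, per library, with no count, signal or score. Starts were read as counted from 1, ends as included, after checking the bases that RNase T1 leaves. A cluster belonged to a gene by its midpoint on its strand (GENCODE release 44), and regions and positions were taken from the Ensembl canonical transcript. Clusters overlapping by at least 1 nt were merged; a site was reproducible for a protein with clusters in at least 2 of its libraries. Guide and primer sequences came from the study's supplement and were matched exactly.

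Groups were 8 IGF2BP (reader) and 4 METTL1 and WDR4 (writer) libraries, compared by two-sided exact permutation tests over all genes with clusters in at least 3 libraries. The 5 genes, the lists of relatives and the tests were chosen with earlier results of these data known. The 5 genes were always named, and up to 3 relatives of each list by libraries with an exon cluster, with the genes closest to each member by Pearson r. Alternatives changed the scaling, the filter, the merging, the libraries and the unit. Code ran in Python 3.11.15 with numpy 2.4.6, pandas 2.3.3 and samtools 1.23.1, and was tested on simulated data. Cluster numbers per library set the precision, and m7G maps, tethering readouts and RNA levels were not used here. No column of another sample was present.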

Additional observations from a re-analysis of the deposited data

Results flagged for a closer look

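Several values stood apart from the others of their group by the gap between the highest library and the next. The usual share of about 1 in 20 groups by chance does not apply, since every other library of the group is at 0 clusters and such a gap arises wherever 1 library alone has a cluster. Intron clusters of BPNT2 were 1.66 per 10000 in bio2 replicate 2, and 0 in the other IGF2BP3 libraries and in all other reader libraries. Among the 4 writer libraries, exon clusters of HUWE1 were 1.16 per 10000 in METTL1 replicate 2 alone. Intron clusters of HUWE1 were 2.05 in WDR4 replicate 1 alone. Exon clusters of CYRIB were 1.02 in WDR4 replicate 1 alone, and intron clusters of CYRIB were 1.09 in WDR4 replicate 2 alone.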

How the results depend on the processing

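No member gene passed the adjusted threshold under any alternative run; the adjusted p of HUWE1 exon clusters lay between 0.0528 and 0.606, and the number of genes called from all clusters or exon clusters was 0 to 0 with any library left out. The 115 genes called from intron clusters became 0 with raw cluster numbers, presence or absence and no filter on libraries. Without the bio2 libraries the count was also 0, and 0 to 0 with any library left out. In these last runs and under the replicate block the smallest possible p rose, so the counts cannot show dependence on a library. With the protein as the unit the smallest p is 0.1, so 0 was the only possible count there, in this test and in the others. The genes called numbered 128 with exons of the canonical transcript alone and 115 with whole clusters within the gene. Replicate numbers did not pair the libraries: replicate 1 minus replicate 2 correlated across genes above 0.1 in 1 of 15 pairs of groups (-0.0529 to 0.147). Permuting within the numbers (replicate block) gave 0 genes for intron clusters, and an adjusted p of 0.101 for HUWE1 exon clusters. The NDRG1 difference, in all clusters and in exon clusters alike, turned to -0.25 with presence or absence and to -0.0795 without IGF2BP1 replicate 1, the lowest value with a library left out; the highest was 0.315, without either bio2 library. Counting only sites in 2 or more libraries left 2 sites in NDRG1, 2 in HUWE1 and 0 in CYRIB. With a library left out, the sites numbered 6 to 7 in BPNT2 and ZDHHC9, 2 to 4 in NDRG1 (2 without IGF2BP1 replicate 1), 5 to 7 in HUWE1 and 1 to 2 in CYRIB (1 without either WDR4 library). From the ZDHHC9 target to METTL1 the distance was 8966 nt along the genome, where introns count, and to a reproducible WDR4 cluster 1147 nt. The cause of the other changes was not tested. Without counts in the files, clusters cannot be weighted by depth.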
